A study of Homo sapiens with 8 samples.

Results

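The nuclear genes for proteins of the mitochondrial ribosome were examined in 22Rv1 cells, a human prostate cancer line derived from a xenograft that expresses the androgen receptor, after transfection with a mimic of the microRNA miR-194. Members were all gene symbols made of MRPL or MRPS, a number and, in a few, the letter A, B or C, and 76 of the 23346 symbols counted met this rule. The rule uses symbols and no measured value, although this gene family was taken up with earlier results of these data known. In the miR-194 mimic group, 4 libraries came from 22Rv1 cells that received 20 nM of the mimic, a synthetic RNA that supplies the mature microRNA, while in suspension. In the negative control group, 4 libraries came from cells that received a negative control in the same way. All 8 came from cells of 1 line in serum-containing medium, with RNA taken at 36 h, and no untransfected library was analysed here. The comparison asks how added miR-194 changes RNA levels. Nothing in the labels says that replicates were separate cultures, so each p-value measures only the spread between these libraries, which may be technical.

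Mitochondria keep their own ribosomes, which translate the few messages encoded in mitochondrial DNA, all of them for membrane-embedded subunits of the oxidative phosphorylation complexes. Their ribosomal RNAs are encoded in mitochondrial DNA, but every protein is encoded in the nucleus, made in the cytosol and imported. Some of these proteins have counterparts in bacterial ribosomes, and others are found only in mitochondrial ones, where they clad a shortened RNA core and tie the large subunit to the inner membrane. MRPL symbols name proteins of the large subunit, which joins amino acids, and MRPS symbols proteins of the small subunit, which reads the message. MRPS30 and MRPS18A are exceptions, since human structures place both in the large subunit, and they are counted there. MRPS36 is counted with neither subunit, because in humans its product is a component of the oxoglutarate dehydrogenase complex.

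Library totals ran from 32485036 to 47248241 counts, and 14977 symbols passed the filter on low counts. The 76 members together took 0.625%, 0.601%, 0.645% and 0.629% of all counts in the mimic libraries 1 to 4 and 0.602%, 0.615%, 0.597% and 0.624% in the control libraries, so the groups overlapped. Levels below are CPM, in which counts are put on the same total for every library after correction for composition. Luminal prostate markers fitted the labelled line, with 7 of 7 present and summed levels of 4376 to 4690 CPM in mimic libraries and 4163 to 4387 CPM in control libraries. Leukocyte markers summed to 6.20 to 8.80 CPM in mimic libraries and 4.13 to 4.83 CPM in control libraries, nearly all of it CD68, with 4 of 5 below 1 CPM in every library and MS4A1 at 0. Fibroblast markers summed to 47.9 to 56.6 CPM in mimic libraries and 44.5 to 52.4 CPM in control libraries, mostly LUM and COL1A1, with 3 of 6 below 1 CPM. Of 3 endothelial markers, PECAM1 and CDH5 were at 0 in all libraries. The part of these markers in the results was not tested. In RNA from whole cultures, fewer cells with a transcript and less of it per cell cannot be told apart.

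Mitochondrial ribosomal protein genes changed little in either direction. Of the 75 members that passed the filter, 14 were higher with the mimic and 6 lower at an adjusted p below 0.05 (edgeR's quasi-likelihood test, Benjamini-Hochberg adjustment over all tested genes), and 55 did not pass. The 20 calls are 26.7% of the tested members, beside 38.1% of all tested genes; higher calls made up 18.7% of members beside 18.3%, and lower calls 8% beside 19.9%. The median log2 fold change was 0.03 over the members (0.02 without control replicate 3, 0.05 without control replicate 4 and 0.06 without mimic replicate 2) and 0.00 over all tested genes, and 50 members had a positive and 25 a negative value. Among all tested genes whose mean level lay within the members' range of 16.8 to 272.5 CPM, 47% were called, 23.8% higher and 23.2% lower. In that range the median size of a log2 fold change was 0.13, beside 0.08 for the members, whose median standard error (SE) of 0.05 equalled that of the range.

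All called changes were modest. Log2 fold changes of members ran from −0.49 to 0.41, and 44 of 75 lay within 0.1 of 0. A called change of at least 2-fold was found in 0 members, beside 1.26% of all tested genes. The 4 mimic and 4 control values did not overlap in 17 members, beside 36.9% of all tested genes; 16 of these were called, 10 higher and 6 lower. The other was MRPL40, with a log2 fold change of −0.16 ± 0.06 (SE), which was named after its values were seen. Its edgeR adjusted p was 0.0573, and 0.00362 with the replicate number as a block.

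**Figure D1:**
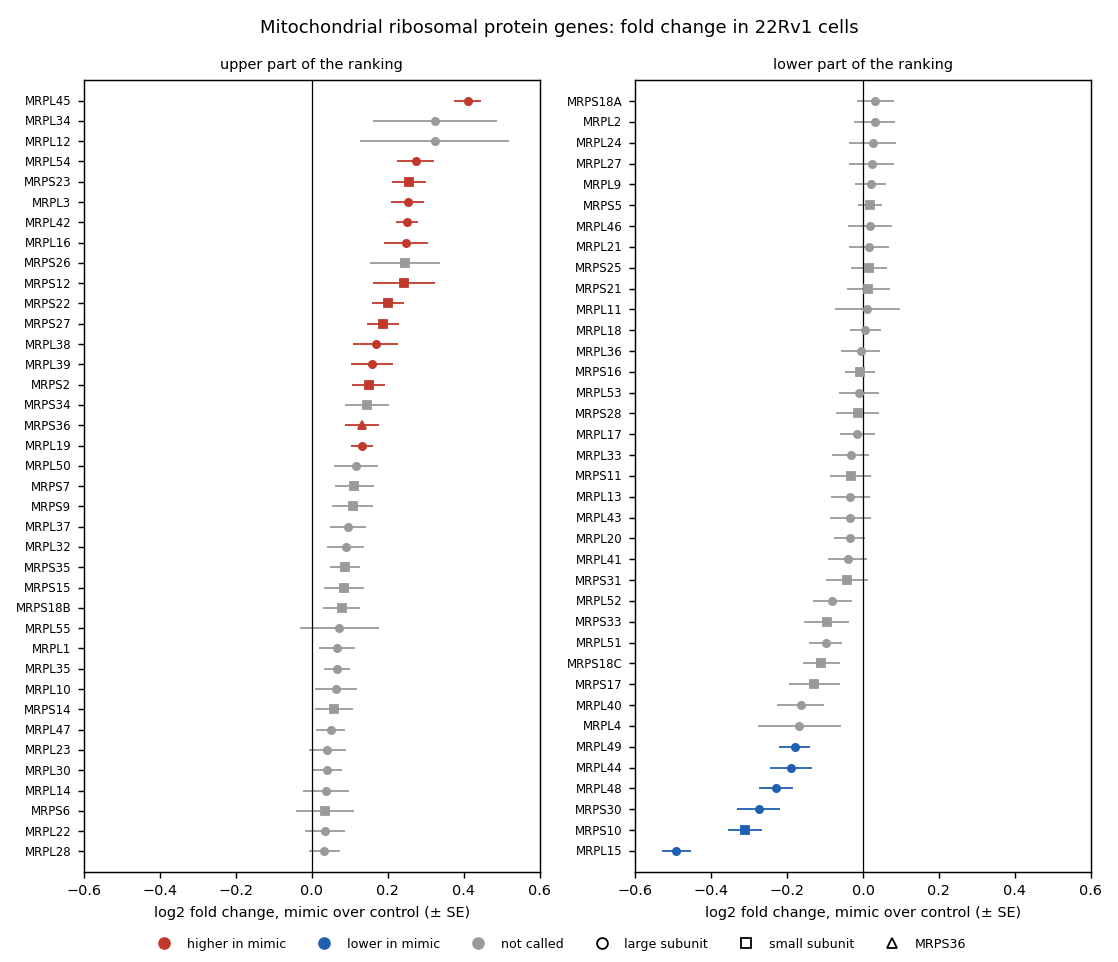
Log2 fold change of CPM, mimic over control, with its SE (horizontal axis) for the 75 tested members, ranked; red marks members called higher with the mimic, blue those called lower and grey the rest, circles the large subunit, squares the small subunit and the triangle MRPS36. Most members sit within 0.1 of 0, with MRPL45 at 0.41 and MRPL15 at −0.49 at the ends.

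**Figure D2:**
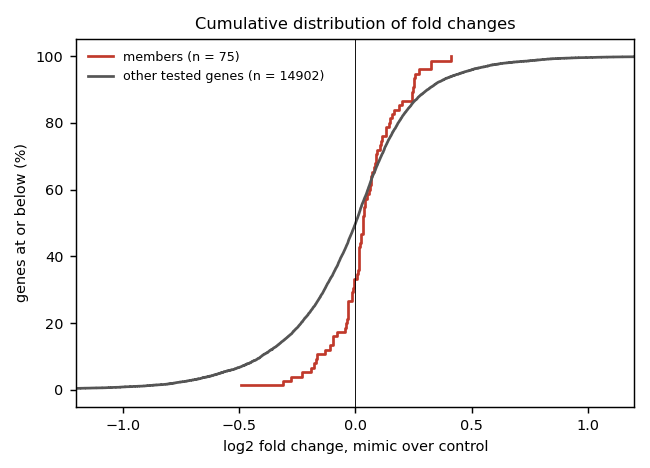
Share of genes (vertical axis, %) at or below each log2 fold change, mimic over control (horizontal axis), for the 75 members in red and the other tested genes in grey. The members' curve is the steeper, with a median of 0.03, and it holds fewer genes at the negative end.

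The largest fall was in MRPL15, the counterpart of bacterial L15 in the core of the large subunit. It had 62.8, 58.6, 61.6 and 60.1 CPM in the mimic libraries, against 84.1, 82.6, 86.1 and 89.2 CPM in the control libraries. Every mimic library lay well under every control library, with a log2 fold change of −0.49 ± 0.04 (SE; edgeR adjusted p = 2.01e-06). Leaving out any 1 library kept this value between −0.51 and −0.47. MRPS10, the counterpart of bacterial S10 in the head of the small subunit, was the only small subunit member to fall without the replicate block; with it, MRPS17, MRPS18C and MRPS33 were called lower too (edgeR adjusted p = 0.0193, 0.0263 and 0.0281). It had 79.2, 81.7, 82.3 and 81.9 CPM in the mimic libraries, against 99.5, 92.8, 103 and 108 CPM in the control libraries. Here too the groups were apart, at a log2 fold change of −0.31 ± 0.05 (edgeR adjusted p = 0.000261).

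The other 4 members that fell encode proteins found only in mitochondrial ribosomes, all placed in the large subunit. MRPS30 had 44.3, 46.4, 42.4 and 38.6 CPM with the mimic and 52.5, 54.5, 50.1 and 50.5 CPM with the control, a log2 fold change of −0.27 ± 0.06 (edgeR adjusted p = 0.00267). MRPL48 had 52.0, 48.6, 54.5 and 53.6 CPM with the mimic and 59.8, 60.8, 60.6 and 63.7 CPM with the control, a log2 fold change of −0.23 ± 0.04 (edgeR adjusted p = 0.00171). For both genes the highest mimic library stayed under the lowest control library. MRPL44, a protein of the ribonuclease III family near the exit of the nascent chain, had 44.1, 41.6, 47.9 and 47.7 CPM with the mimic and 49.7, 50.4, 51.2 and 55.6 CPM with the control. Its log2 fold change was −0.19 ± 0.06 (edgeR adjusted p = 0.0193), and it no longer passed when mimic replicate 1 (adjusted p = 0.0578), mimic replicate 2 (0.0521) or control replicate 4 (0.0585) was left out. MRPL49 had 93.9, 86.5, 92.1 and 95.2 CPM with the mimic and 105, 101, 102 and 109 CPM with the control. These groups did not overlap either, at a log2 fold change of −0.18 ± 0.04 (edgeR adjusted p = 0.00487).

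The largest rise was in MRPL45, a TIM44-like protein at the exit of the peptide tunnel that anchors the ribosome to the inner membrane. It had 56.2, 54.3, 54.1 and 56.2 CPM in the mimic libraries, against 40.8, 41.5, 42.1 and 41.8 CPM in the control libraries. Within each group the libraries were nearly level, and the log2 fold change was 0.41 ± 0.04 (edgeR adjusted p = 5.11e-06; 0.40 to 0.43 with any 1 library left out). A pseudogene copy, MRPL45P2, had 144 to 262 counts, equal to 7.9% to 9.9% of the MRPL45 counts in mimic libraries and 10.5% to 13.4% in control libraries. The handling of reads that fit more than a single copy is unknown, so the value of MRPL45 is uncertain to that extent.

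MRPL54, found only in mitochondria, had 43.7, 40.1, 45.0 and 45.3 CPM with the mimic and 35.5, 35.7, 35.2 and 37.8 CPM with the control (log2 fold change 0.27 ± 0.05, edgeR adjusted p = 0.00103). MRPS23, a small subunit protein of the same kind, had 72.5, 70.9, 76.7 and 79.0 CPM with the mimic and 61.9, 60.9, 61.6 and 66.3 CPM with the control (0.26 ± 0.05, edgeR adjusted p = 0.000994). In both genes all mimic libraries lay above all control libraries. MRPL3, whose bacterial counterpart L3 lies by the centre that joins amino acids, had 223, 218, 222 and 202 CPM with the mimic and 191, 186, 172 and 177 CPM with the control (0.25 ± 0.04, edgeR adjusted p = 0.000871). MRPL42, with the highest counts of all members, had 297, 294, 295 and 298 CPM with the mimic and 257, 249, 245 and 245 CPM with the control (0.25 ± 0.03, edgeR adjusted p = 4.22e-05). MRPL16, counterpart of bacterial L16 near the tRNA sites, had 70.0, 64.7, 70.7 and 64.3 CPM with the mimic and 57.9, 61.1, 50.8 and 57.5 CPM with the control (0.25 ± 0.06, edgeR adjusted p = 0.00578). The lowest mimic value lay above the highest control value in each of these genes as well.

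Smaller rises without overlap were seen in 4 more members. MRPS22, needed for a stable small subunit, averaged 72 ± 2.58 CPM with the mimic and 62.7 ± 2.61 CPM with the control (SD, n = 4 each; log2 fold change 0.20, edgeR adjusted p = 0.00322). MRPS27, a pentatricopeptide repeat protein of the small subunit, averaged 188 ± 9.70 CPM with the mimic and 165 ± 5.29 CPM with the control (0.19, edgeR adjusted p = 0.00435). MRPL19, counterpart of bacterial L19, was almost flat within the mimic group at 185 ± 0.458 CPM, against 169 ± 3.65 CPM in the control group (0.13, edgeR adjusted p = 0.0044). MRPS2, counterpart of bacterial S2, averaged 81.2 ± 3.07 CPM with the mimic and 73.2 ± 3.14 CPM with the control (0.15, edgeR adjusted p = 0.0167), and lost the call without control replicate 1 (adjusted p = 0.0574). The last 4 rises overlapped between groups and were the least secure. MRPS12 (0.24 ± 0.08), MRPL38 (0.17 ± 0.06), MRPL39 (0.16 ± 0.06) and MRPS36 (0.13 ± 0.05), all named after their values were seen, had edgeR adjusted p-values of 0.0356, 0.0438, 0.0421 and 0.0395. Each was called in only some of the 8 fits that left out a library, MRPS12 in 4 and the others in 2.

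**Figure D3:**
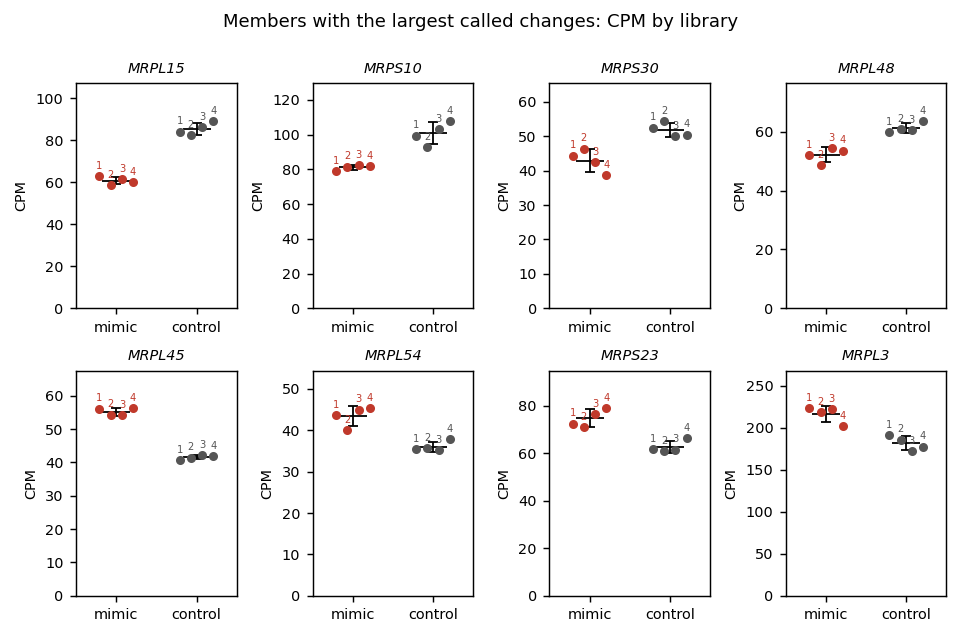
CPM (vertical axes, from 0) of 8 called members in each library, mimic on the left in red and control on the right in grey, with replicate numbers beside the points and bars for mean and SD. In each panel, the mimic and control points do not overlap, with MRPL15 at 58.6 to 62.8 CPM in mimic libraries against 82.6 to 89.2 CPM in control libraries.

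Both subunits held calls of both signs. Of 49 large subunit members, 8 rose, 5 fell and 36 did not pass, at a median log2 fold change of 0.03. Of the 25 tested small subunit members, 5 rose, 1 fell and 19 did not pass, with a median of 0.06. The 29 large subunit members with a bacterial counterpart gave 3 rises and 1 fall, and the 20 found only in mitochondria 5 rises and 4 falls. In the small subunit, 15 members with a bacterial counterpart gave 2 rises and 1 fall, and 10 found only in mitochondria gave 3 rises and 0 falls. In the same order, calls made up 13.8%, 45%, 20% and 30% of these 4 classes, beside 38.1% of all tested genes. Around the exit tunnel, MRPL45 and MRPL39 rose, MRPL44 fell, and MRPL22, MRPL23, MRPL24 and MRPL47 did not pass. The stalk that recruits translation factors and its base (MRPL10, MRPL11 and MRPL12) held no called gene. No difference between these classes was tested. Centred on each gene's mean, the members' median log2 level was 0.03, −0.06, 0.06 and 0.05 in mimic libraries 1 to 4 and −0.02, −0.01, −0.05 and 0.02 in control libraries. Mimic replicate 2 was thus the lowest of all 8, and the groups overlapped.

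With the replicate number as a block, 33 of 75 members were called, 22 higher and 11 lower. That is 44% of members beside 50.9% of all tested genes, 25.2% of which were called higher and 25.6% lower. The block added 13 calls and removed none. Added as higher were MRPS7, MRPS9, MRPS26, MRPS34, MRPS35, MRPL32, MRPL37 and MRPL50. Added as lower were MRPS17, MRPS18C, MRPS33, MRPL40 and MRPL51. With the block, the largest log2 fold change in size among the added members was 0.25, in MRPS26. Within replicates 1 and 2 alone, 9 members were called higher and 10 lower, at a median of −0.01 on the log2 scale, beside 15.8% of all genes tested there called higher and 18.2% lower. Within replicates 3 and 4 alone, 15 members were called higher and 5 lower and the median was 0.06, beside 15.9% and 17.8% of all genes. The sign of the members' median therefore differed between these pairs of replicates, but in replicates 1 and 2 it was near 0. The median over all tested genes was −0.01 in replicates 1 and 2 and 0.01 in replicates 3 and 4. All 20 members called across the 8 libraries kept their sign within each of these pairs. They were called on these same libraries, and 16 of them had no overlap between groups, so this is no separate check. MRPL15 had a log2 fold change of −0.46 in replicates 1 and 2 and −0.53 in replicates 3 and 4.

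MicroRNAs act by pairing of their seed, bases 2 to 8, with sites mostly in 3′ UTRs, which lowers the message or its translation. The mature miR-194-5p of RefSeq (22 bases, the same from its genes on chromosomes 1 and 11) is shown with the seed in capitals, because all sites below were searched from it.
hsa-miR-194-5p: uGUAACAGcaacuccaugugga
An 8mer site reads CTGTTACA, a 7mer-m8 site CTGTTAC and a 7mer-A1 site TGTTACA in the DNA letters of the transcript strand. The longest annotated 3′ UTR of members had a median of 509.5 bases, beside 1382.5 over tested genes, and 28.4% exceeded 1000 bases, beside 60.5%. An 8mer or 7mer was found in the longest 3′ UTR of 6 of 74 members (8.1%), beside 2767 of 13432 tested genes (20.6%). Among 3′ UTRs of 2000 bases or more, 2 of 11 members (18.2%) held a site, beside 39.4% of other genes. In the band from 500 to 1000 bases it was 2 of 17 members (11.8%), beside 8.9%. From 50 to 250 bases it was 1 of 18 (5.6%, beside 1.9%), and from 250 to 500 bases 0 of 18 (beside 4.1%). From 1000 to 2000 bases it was 1 of 10 (10.0%, beside 16.4%).

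The 6 members with such a site are MRPL35, MRPL27, MRPS18C, MRPS31, MRPS7 and MRPS28. The site and 11 bases on either side are given for 5 of them, since these are the members in which a direct effect on the message would be sought, with the site in capitals. They are in GENCODE 29 transcripts on GRCh38, joined to the counts, which are on hg19, by symbol.
MRPL35 (8mer, chr2:86212600-86212607, + strand): gacaagggtctCTGTTACAggggcctcaga
MRPL27 (7mer-A1, chr17:50369468-50369474, − strand): ggacagttcttTGTTACAgagacataacg
MRPS18C (7mer-A1, chr4:83461548-83461554, + strand): ctttgtagaaaTGTTACAttgggatggat
MRPS31 (7mer-A1, chr13:40729248-40729254, − strand): gctggtataaaTGTTACAttgttttcaaa
MRPS7 (7mer-m8, chr17:75264201-75264207, + strand): aagaattgagaCTGTTACggtccactcat
Only in 3 of the 6, MRPL35, MRPS18C and MRPS31, was the site also in the gene's principal transcript.

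None of these 6 members passed the test in either direction. MRPL35, counterpart of bacterial L35 and the only member with an 8mer, averaged 103 ± 2.69 CPM with the mimic and 98.5 ± 1.78 CPM with the control (SD, n = 4 each), and the log2 fold change was 0.07 ± 0.03 (SE; edgeR adjusted p = 0.147). MRPS18C, in the family of bacterial S18, averaged 35.2 ± 0.85 CPM with the mimic and 38.0 ± 2.09 CPM with the control, a log2 fold change of −0.11 ± 0.05 (edgeR adjusted p = 0.0952, and 0.0263 with the replicate block). Without control replicate 2 it was −0.15, with an edgeR adjusted p of 0.0296. MRPS7, counterpart of bacterial S7, averaged 122 ± 8.17 CPM with the mimic and 113 ± 5.25 CPM with the control. Its log2 fold change was 0.11 ± 0.05 (edgeR adjusted p = 0.11, 0.0161 with the block and 0.0217 without mimic replicate 2). Thus the blocked fit called MRPS18C lower and MRPS7 higher. MRPL27, MRPS28 and MRPS31 had log2 fold changes of 0.02, −0.01 and −0.04, each with an SE of 0.06.

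Over all tested genes, 40.8% of those with an 8mer or 7mer in the longest 3′ UTR were called lower and the median log2 fold change was −0.12, against 15.2% and 0.03 for those without. Over the members the values were 0 of 6 lower with a site, with a median of 0.00, against 6 of 68 lower (8.8%) without, with a median of 0.03. All 6 members that fell therefore lacked an 8mer or 7mer in the longest 3′ UTR. MRPL15 and MRPS10 each held a 6mer there (TGTTAC). Counting 6mers too, 14 members held a site, of which 2 (14.3%) fell and 4 (28.6%) rose. Over all tested genes with such a site 34.9% were called lower and 14.3% higher. Most of those genes held an 8mer or 7mer (2767 of 4438), whereas every call among these members was in a gene with a 6mer alone. These shares therefore compare unlike mixes of sites.

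Coding sequences were searched after the 3′ UTR values were seen. An 8mer or 7mer in the coding sequence and none in the longest 3′ UTR was found for 5 members: MRPL44, MRPL49, MRPS30, MRPL10 and MRPL36. Of these, 3 fell, 0 rose, and the median log2 fold change was −0.18. Of the 1238 tested genes with a match there alone, 315 (25.4%) were called lower and 187 higher, with a median of −0.03. With an 8mer or 7mer in neither place, 3 of 64 members were called lower and 14 higher. Over all tested genes with neither, 1324 of 9565 (13.8%) were called lower and 2158 higher. The values for members with a coding match rest on 5 genes, and no difference was tested. The matches in the 3 members that fell are given with 11 bases on either side and the site in capitals.
MRPL44 first match (7mer-A1, chr2:223959923-223959929, + strand): gcccccagctgTGTTACAgcagactttct
MRPL44 second match (8mer, chr2:223959958-223959965, + strand): ttattggagccCTGTTACAgagcagtggac
MRPL49 (7mer-m8, chr11:65124574-65124580, + strand): ttgtggagcgcCTGTTACcggctaccagg
MRPS30 first match (7mer-m8, chr5:44813128-44813134, + strand): gcagatccttgCTGTTACggtcacaccca
MRPS30 second match (7mer-m8, chr5:44813153-44813159, + strand): cccagtttcatCTGTTACctgacaaatta
MRPL10, with a log2 fold change of 0.06, and MRPL36, at −0.01, held the same kind of match and did not pass. A match is a string of letters and says nothing of whether the microRNA was bound.

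Some members varied widely within groups, and those shown here were picked for that spread. The median coefficient of variation within groups was 5.04% over the 75 members and exceeded 10% in 6 of them. MRPL12, which forms the stalk, led with 22.5%. It had 121, 135, 143 and 83.9 CPM in the mimic libraries, against 94.2, 129, 83.1 and 79.1 CPM in the control libraries. The groups overlapped because mimic replicate 4 was low and control replicate 2 high, and the log2 fold change of 0.32 ± 0.20 did not pass (edgeR adjusted p = 0.232). Without mimic replicate 4 it was 0.47 (adjusted p = 0.046), and without control replicate 2 it was 0.50 (adjusted p = 0.0453).

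MRPL34, counterpart of bacterial L34, had the same pattern, with 61.1, 59.7, 61.1 and 42.8 CPM in the mimic libraries, against 44.2, 58.8, 38.6 and 37.5 CPM in the control libraries. The fitted log2 fold change was 0.33 ± 0.16 (edgeR adjusted p = 0.152), 0.44 without mimic replicate 4 (adjusted p = 0.0295) and 0.49 without control replicate 2 (adjusted p = 0.0132). MRPS26, a mitochondria-specific protein of the small subunit, had 70.2, 70.1, 70.2 and 59.6 CPM with the mimic, against 54.7, 68.5, 51.1 and 53.3 CPM with the control. The same 2 libraries stood apart from their groups, at a log2 fold change of 0.25 ± 0.09 (edgeR adjusted p = 0.0583, and 0.00837 with the replicate block). MRPS26 also passed with DESeq2 (adjusted p = 0.0255), limma-voom (0.0493) and edgeR after upper quartile scaling (0.0424). Without mimic replicate 4 its edgeR adjusted p was 0.0206, and without control replicate 2 it was 0.00166. MRPL4, whose bacterial counterpart L4 lines the peptide tunnel, had 93.5, 89.7, 89.5 and 73.0 CPM with the mimic, against 97.6, 118, 85.3 and 87.5 CPM with the control, with a log2 fold change of −0.17 ± 0.11 (edgeR adjusted p = 0.264).

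Among the 10 members with the highest coefficient of variation, mimic replicate 4 was the lowest of its group in 7 and control replicate 2 the highest of its group in 7. Over all 75 members these counts were 19 and 18. Transcripts of the 10 had a median GC content of 56.2%, against 48.0% for the other members. Across the 75 members, which share the same libraries, the coefficient of variation and GC content had a Spearman correlation of 0.409 and a Pearson correlation of 0.42, given as a description. The part of base composition in this spread was not tested.

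**Figure D4:**
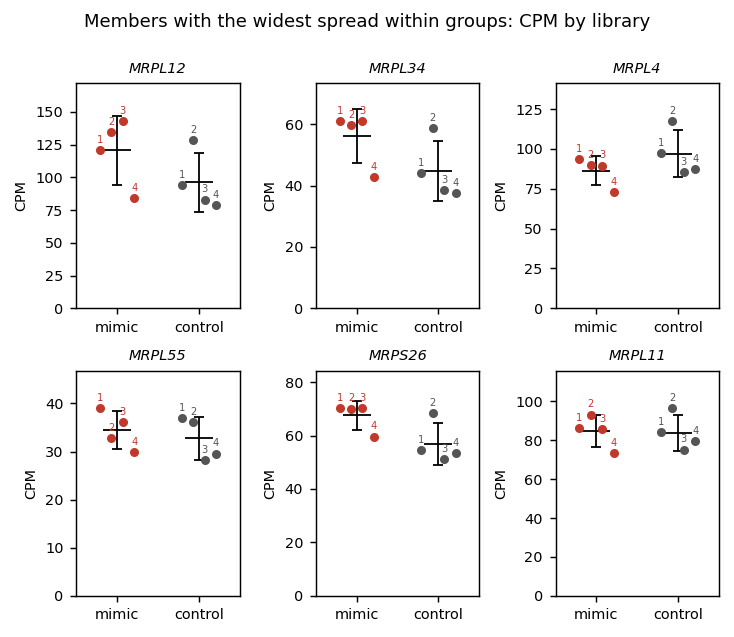
CPM (vertical axes, from 0) in each library of the 6 members with the widest spread within groups, mimic on the left in red and control on the right in grey, with replicate numbers and bars for mean and SD. Mimic replicate 4 lies under the other mimic libraries and control replicate 2 above the other control libraries in MRPL12 (83.9 CPM and 129 CPM) and in most of the other panels.

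Levels were compared between genes only after division by the length of the principal GENCODE 29 transcript. On the resulting length-scaled level (TPM) the median member stood at 117.4 in mimic libraries and 116 in control libraries, with quartiles of 68.1 and 164 in mimic libraries and 72.8 and 168 in control libraries. MRPL24, counterpart of bacterial L24 at the tunnel exit, was highest with 538 ± 45.1 in mimic libraries and 536 ± 27.2 in control libraries (SD, n = 4 each). MRPL51 followed with 418 ± 19.2 in mimic libraries and 454 ± 16.3 in control libraries, and MRPL20 with 363 ± 12.9 in mimic libraries and 377 ± 10.2 in control libraries. The lowest were MRPL22 at 22.9 ± 1.37 in mimic libraries and 22.6 ± 0.639 in control libraries, MRPL50 at 31.6 ± 1.57 in mimic libraries and 29.5 ± 1.56 in control libraries, and MRPS23 at 31.9 ± 1.27 in mimic libraries and 27.0 ± 1.00 in control libraries. Of these 6 only MRPS23 was called in the mimic comparison; with the replicate block MRPL50 (higher) and MRPL51 (lower) were called as well. Proteins that stand together in the ribosome thus had RNA levels that differed widely per length, although transcript choice and counting enter these values. MRPL22, MRPL50 and MRPS23 were divided by long transcripts of 3176, 3332 and 5621 bases. The median was 1458.5 bases over the 74 tested members with a 3′ UTR. How far transcript choice sets their low rank was not tested.

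MRPS24 was the only member under the filter. It had 4, 7, 10 and 10 counts in the mimic libraries and 7, 10, 7 and 11 counts in the control libraries, while every other member had at least 508 counts in every library. Its exons are shared on the same strand with a readthrough transcript from the neighbouring gene URGCP in GENCODE 29, and the row for that readthrough, URGCP-MRPS24, held 0 counts in all libraries, against 1720 to 2697 for URGCP. What was done with reads in shared exons is unknown, so the row is no measure of MRPS24 RNA. Exons of 14 members overlap another gene on the same strand in GENCODE 29, among them the called genes MRPL38 and MRPL42, and exons of 25 overlap a gene on the opposite strand. The strand setting is not given, and the values of these members are uncertain to that extent. Named pseudogenes exist for 33 members, 8 of them called.

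Members lie on 21 chromosomes, with at most 8 on a single one. Of the 67 members with a RefSeq promoter (GRCh38.p14, 250 bases before to 50 after the start, both strands), 28 (41.8%) held CCGGAAG, a form of the ETS motif bound by GABPA, beside 10.7% of 27305 promoters and 17.9% of those of tested genes. A long form of the YY1 motif was found in 10 (14.9%), beside 0.9% of all promoters and 1.9% of those of tested genes. The palindromic NRF1 motif was in 1 (1.5%, beside 1.4% of all promoters and 2.2% of those of tested genes). CCAAT was in 20 (29.9%, beside 35.7% and 36.7%), TATAAA in 2 (3.0%, beside 12% and 5.9%) and the CREB motif TGACGTCA in 0 (beside 2.0% and 3.1%). Members with the ETS letters gave 7 rises and 2 falls among 28 tested, at a median log2 fold change of 0.02, and those without gave 6 rises and 3 falls among 38, with a median of 0.05. Members with the long YY1 motif gave 1 rise and 2 falls among 9 tested, and those without gave 12 rises and 3 falls among 57. Of all tested genes, 18.3% were called higher and 19.9% lower. Calls were thus present on both sides of both divisions, and neither was tested.

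Genes that complete, build, use and supply the mitochondrial ribosome gave 44 calls among 85 tested genes, 34 higher and 10 lower, beside the 20 of 75 for the members. As shares these were 51.8% called, 40% higher and 11.8% lower, beside 38.1%, 18.3% and 19.9% of all tested genes. Among tested genes at 16.8 to 272.5 CPM, the members' range, 47% were called, 23.8% higher and 23.2% lower. Some genes of these lists lie outside that range. No difference between these counts or shares was tested. Of 7 ribosomal proteins with other symbols, 1 (14.3%) rose and 2 (28.6%) fell. PTCD3, a pentatricopeptide repeat protein of the small subunit by the message entry, averaged 101 ± 4.60 CPM with the mimic and 140 ± 3.16 CPM with the control (SD, n = 4 each; log2 fold change −0.47, edgeR adjusted p = 3.02e-06). CHCHD1, a small subunit protein, averaged 50.5 ± 4.14 CPM with the mimic and 64.0 ± 4.26 CPM with the control (−0.34, edgeR adjusted p = 0.00158). PTCD3 has a 7mer-m8 and CHCHD1 a 7mer-A1 site in the longest 3′ UTR. All sites given for genes of these lists are in the longest 3′ UTR. Whether they lie in the principal transcript was not checked. DAP3, a GTP-binding protein of the small subunit, had a log2 fold change of 0.16 (edgeR adjusted p = 0.0174, and 0.0533 without control replicate 3). AURKAIP1, another small subunit protein, did not pass at a log2 fold change of 0.21 (edgeR adjusted p = 0.122), but did without mimic replicate 4 (0.0381) or control replicate 2 (0.00916).

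Of 27 genes for assembly and modification of the ribosomal RNA, 11 (40.7%) rose and 3 (11.1%) fell. Over all tested genes these shares were 18.3% and 19.9%. NGRN, which takes part in handling the RNA of the large subunit, averaged 135 ± 8.6 CPM with the mimic and 82.7 ± 6.81 CPM with the control (log2 fold change 0.71, edgeR adjusted p = 5.24e-06), although its 3′ UTR holds a 7mer-A1 site. TRUB2, a pseudouridine synthase, rose by 0.54 on the log2 scale (edgeR adjusted p = 3.47e-05). GTPBP10, a GTPase that matures the large subunit, averaged 59.1 ± 2.78 CPM with the mimic and 83.9 ± 2.72 CPM with the control (−0.51, edgeR adjusted p = 3.66e-06). METTL15, which methylates the RNA of the small subunit, fell by 0.44 (edgeR adjusted p = 1.67e-05), and both genes have a 7mer-A1 site in the longest 3′ UTR.

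Of 15 translation factors, 7 (46.7%) rose and 1 (6.7%) fell, beside 18.3% and 19.9% of all tested genes. MTRF1L, a release factor, averaged 28.1 ± 0.84 CPM with the mimic and 15.9 ± 0.733 CPM with the control (log2 fold change 0.82, edgeR adjusted p = 3.31e-07). GFM1, the elongation factor that moves the ribosome along, averaged 170 ± 2.92 CPM with the mimic and 134 ± 2.49 CPM with the control (0.34, edgeR adjusted p = 5.53e-06). The recycling factor MRRF and OXA1L, which inserts new proteins into the inner membrane, rose by 0.23 and 0.25 on the log2 scale (edgeR adjusted p = 0.00062 and 0.000805). Of 17 mitochondrial aminoacyl-tRNA synthetases, which charge tRNAs, 7 (41.2%) rose and 0 fell, at a median log2 fold change of 0.12. The 4 with the smallest p were MARS2 (0.30), IARS2 (0.23), YARS2 (0.22) and HARS2 (0.19), for methionine, isoleucine, tyrosine and histidine. MARS2 rose although its longest 3′ UTR holds a 7mer-A1 site.

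Of 11 genes for replication and transcription of mitochondrial DNA, 6 (54.5%) rose and 3 (27.3%) fell. Over all tested genes these shares were 18.3% and 19.9%. TFAM, which packages that DNA and starts its transcription, averaged 42.7 ± 2.22 CPM with the mimic and 61.8 ± 2.18 CPM with the control (log2 fold change −0.53, edgeR adjusted p = 5.17e-06) and has a 7mer-A1 site. The nuclease gene C20orf72 (MGME1) fell by 0.49 on the log2 scale (edgeR adjusted p = 0.000145). Its longest 3′ UTR holds a 6mer but no 8mer or 7mer. The helicase gene C10orf2 (Twinkle) rose by 0.36 and the protease gene LONP1 by 0.33 (edgeR adjusted p = 3.11e-05 and 0.00028). Of 8 tested transcription factors and coactivators of mitochondrial biogenesis, 2 (25%) rose and 1 (12.5%) fell. GABPA, the ETS factor that binds many promoters of mitochondrial protein genes, averaged 80.5 ± 4.07 CPM with the mimic and 58.8 ± 1.23 CPM with the control (0.45, edgeR adjusted p = 8.34e-06), while GABPB1, its partner subunit, fell by 0.31 (edgeR adjusted p = 0.000246) and has a 7mer-A1 site. The nuclear receptor ESRRA rose by 0.25 (edgeR adjusted p = 0.0218), a call that was lost without mimic replicate 2 or 3 or control replicate 1, 3 or 4 (adjusted p of 0.0559 to 0.0667). PPARGC1B, a coactivator, had a log2 fold change of −0.10 (edgeR adjusted p = 0.0853, and 0.0357 with the replicate block). Over the 82 genes of these lists with an annotated 3′ UTR, 12 (14.6%) held an 8mer or 7mer, of which 7 fell, 3 rose and 2 did not pass. Over all tested genes with a 3′ UTR, 20.6% held such a site, of which 40.8% were called lower and 11.3% higher. The counts of the lists rest on 12 genes and were not tested against these shares.

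**Figure D5:**
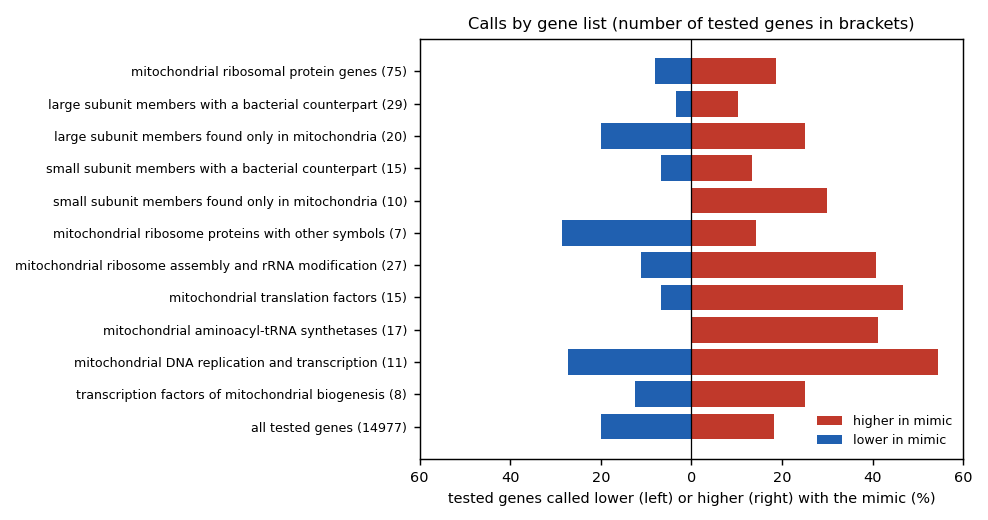
Percentage of tested genes called lower (bars to the left, blue) or higher (bars to the right, red) with the mimic, at an adjusted p below 0.05, for the members, their classes, the related lists and all tested genes, with the number tested in brackets. Of the members 18.7% were called higher and 8% lower, and of all tested genes 18.3% were called higher and 19.9% lower.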

How the data were processed

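The authors deposited unnormalised counts of reads for 23346 gene symbols in 8 libraries, as the values show, and 3370 symbols had no count. Per the submitters' processing notes, STAR, cutadapt 1.8.1, FastQC, edgeR 3.3 and R 3.2.3 were used with the build hg19, each in a role that is not stated. The counting program, annotation, strand setting and treatment of shared reads are not stated in these sources. Libraries were made with an mRNA kit, per the labels' protocols, and groups and replicate numbers come from the sample titles.

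The test was that of edgeR 4.0.16 run in R 4.3.3 (TMM, filterByExpr, robust quasi-likelihood fit, group as the only term, Benjamini-Hochberg adjustment over the 14977 tested genes, threshold 0.05) after a check on simulated counts. An SE is the fitted log2 fold change over the root of its F statistic. No replicates agreed within counting noise: chi-square over its degrees of freedom was 3.64 to 16.8 within groups. Deviations of same-numbered mimic and control libraries correlated at 0.27, 0.34, 0.18 and 0.43, all above 0.1. The fit with the number as a block is therefore reported where it changes the call of a named gene. Libraries 1 and 2, and 3 and 4, also correlated across numbers (0.20 to 0.32). DESeq2 1.42.0 and limma-voom (limma 3.58.1) were alternatives, as were other scalings, no filter and each library left out. Sites and promoters were searched in Python 3.11.15. Per gene, the site search took the longest 3′ UTR, leaving out those under 50 bases; 20194 symbols were the same in GENCODE 29, all 76 members among them, 1460 matched by synonym and 1692 did not match.

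Genes named are the 10 largest rises and falls among called members without overlap, members with an 8mer or 7mer 3′ UTR site, the 3 highest and 3 lowest per length, members under the filter and up to 4 genes of each related list by p. The members and lists were chosen with earlier results of these data known.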

Additional observations from a re-analysis of the deposited data

Results flagged for a closer look

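A library far from the other 3 of its group was found in 4 of 106 groups of 4 values that were checked; chance alone marks about 1 in 20 such groups. MRPS28 had 56.1 CPM in control replicate 4, against 50.01 to 50.91 CPM in the other control libraries. MRPS31 had 24.0 CPM in control replicate 2, against 25.3 to 25.6 CPM in the others. MRPS24 had 0.0913 CPM in mimic replicate 1, against 0.213 to 0.238 CPM in the other mimic libraries, values that rest on 4 to 10 counts. OXA1L had 118.3 CPM in control replicate 4, against 111 CPM in the other control libraries.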

How the results depend on the processing

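No called result changed sign under any alternative run, but 28 members that were not called (log2 fold changes up to 0.07 in size) changed sign in at least 1. The members' median log2 fold change was 0.03 over all libraries, 0.02 to 0.06 with a library left out, −0.01 within replicates 1 and 2 and 0.06 within replicates 3 and 4. The number of called members moved by more than 1.5 times in 1 setting, from 20 to 33 with the replicate block; calls higher with the mimic were 22 with the block and 9 within replicates 1 and 2 alone, against 14, and lower calls 11 with the block and 10 within replicates 1 and 2, against 6. With each library left out in turn, 15 to 24 members were called, 10 to 19 higher and 5 to 9 lower, and 14 members were called in all 8 of these fits. Other scalings, no filter, DESeq2, limma-voom and replicates 3 and 4 alone gave 18 to 22. All 20 called members kept their sign in every setting, which is no separate check because the settings use the libraries that gave the calls. Over all tested genes 4851 to 5469 were called with a library left out, 7616 with the block and 5480 to 5722 under the other whole-set settings. The related lists gave 37 to 54 calls over all settings, against 44. Members with a 3′ UTR site had a median log2 fold change of 0.00 with any annotated 3′ UTR, 0.07 for the single 8mer and 0.02 with 6mers. The members' median SE was 0.05 at 4 libraries a group; the part of counting error in it was not tested, and MRPS24 was too low in counts to test.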
